A study of Mus musculus with 14 samples.

Results

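A set of 10 genes that encode contractile, regulatory or secreted proteins of heart muscle cells were followed through the ascending aorta of C57BL/6 mice. They were taken by name (Myh6, Myh7, Mybpc3, Tnnt2, Tnni3, Actc1, Myl7, Myl4, Nppa and Lrrc10), and all of them are among the 32289 genes of the deposited table. RNA sequencing covered 14 libraries in 4 groups, all of them ascending aortic tissue taken at 6 weeks of the aneurysm model. The groups were 3 libraries labelled PBS, 4 labelled BAPN, 3 labelled BAPN+Cilengitide and 4 labelled BAPN+SB273005. BAPN (β-aminopropionitrile) blocks the lysyl oxidases that cross-link elastin and collagen, and the labels call both Cilengitide and SB273005 integrin αV inhibitors. Doses, ages and the number of mice per library are not given in the labels, and nothing there says that replicates came from separate mice. The p-values therefore describe the spread between these libraries, which may be technical.

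The sarcomere of a heart muscle cell slides actin filaments along filaments of myosin, whose motor is a heavy chain of the α type (Myh6) or of the β type (Myh7). In the adult mouse the α chain prevails in atria and ventricles, and the β chain prevails in the fetal ventricle and in slow skeletal muscle. The light chains Myl7 and Myl4 are typical of atria, and Nppa encodes the atrial natriuretic peptide. The ascending aorta leaves the heart directly, and muscle cells of atrial type also line the roots of large veins beside it. The wall of the aorta itself is built by smooth muscle cells, which use Acta2 and Myh11 in place of these genes.

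Myh6 and Myh7 lie head to tail on the minus strand of chromosome 14. In the deposited table (mm10) Myh6 spans chr14:54941921-54966641 and Myh7 spans chr14:54970684-54994626, with 4042 bases between them. RefSeq promoter windows (GRCm38.p6, 250 bases before to 50 after the start of the RNA) are shown for these genes, for Lrrc10, whose level followed Myh7, and for Myl7, whose level did not. The windows are chr14:54966558-54966857 (minus strand) for Myh6, chr14:54994577-54994876 (minus strand) for Myh7, chr10:117045091-117045390 (plus strand) for Lrrc10 and chr11:5898733-5899032 (minus strand) for Myl7. Capitals mark matches, on either strand, to the core bound by TEAD factors (spelled CATTCC), to a core of the zinc finger factors named after GATA (spelled TGATAA), to a form of the box near many start sites (spelled TATAAA) and to the CArG box of serum response factor.
Myh6: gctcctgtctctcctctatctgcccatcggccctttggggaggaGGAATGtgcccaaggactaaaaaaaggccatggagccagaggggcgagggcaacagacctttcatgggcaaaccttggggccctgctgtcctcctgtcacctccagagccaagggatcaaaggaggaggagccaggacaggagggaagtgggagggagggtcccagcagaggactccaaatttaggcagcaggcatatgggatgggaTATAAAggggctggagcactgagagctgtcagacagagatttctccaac
Myh7: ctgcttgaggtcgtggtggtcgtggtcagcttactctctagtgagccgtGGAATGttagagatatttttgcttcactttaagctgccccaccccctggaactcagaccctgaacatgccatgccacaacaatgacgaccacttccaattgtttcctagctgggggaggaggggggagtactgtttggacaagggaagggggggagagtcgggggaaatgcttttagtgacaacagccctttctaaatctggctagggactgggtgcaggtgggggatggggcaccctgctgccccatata
Lrrc10: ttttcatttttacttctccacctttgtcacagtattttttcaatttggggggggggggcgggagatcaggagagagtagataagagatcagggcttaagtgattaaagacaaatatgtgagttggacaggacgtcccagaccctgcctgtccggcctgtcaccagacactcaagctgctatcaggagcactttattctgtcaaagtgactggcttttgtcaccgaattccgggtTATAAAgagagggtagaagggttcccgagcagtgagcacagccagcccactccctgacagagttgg
Myl7: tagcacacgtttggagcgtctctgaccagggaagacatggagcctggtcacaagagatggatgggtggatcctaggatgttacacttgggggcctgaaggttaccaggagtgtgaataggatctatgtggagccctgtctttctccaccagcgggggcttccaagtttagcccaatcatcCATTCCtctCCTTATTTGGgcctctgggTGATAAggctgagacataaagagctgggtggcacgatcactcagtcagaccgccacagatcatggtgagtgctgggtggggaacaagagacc
Matches in these windows did not overlap each other. Myh7 has a second RefSeq window, chr14:54994500-54994799 (minus strand), which is not shown and held none of these matches. CATTCC was found in at least 1 window of 4 of the 10 members and in 14.7% of 32851 RefSeq promoter windows, TGATAA in 3 members and 9.05%, TATAAA in 4 members and 13.6%, the CArG box in 2 members and 1.63%, and the MEF2 box in 1 member and 3.19%. A match is a run of letters and not a measured binding site.

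Each heavy chain gene also carries a microRNA gene in an intron, Mir208a in Myh6 and Mir208b in Myh7. Their mature forms in RefSeq are shown because they share a seed (bases 2 to 8, in capitals).
mmu-miR-208a-3p: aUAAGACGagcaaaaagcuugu
mmu-miR-208b-3p: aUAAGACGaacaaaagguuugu
Over all 14 libraries the hairpin gene Mir208a had 4 estimated counts and Mir208b had 14. Mhrt, the antisense RNA that starts between the heavy chain genes, had 75 counts in all and at most 0.450 FPKM (fragments per kilobase, scaled to library size). As no source used here states the strand setting, reads of Mhrt and Myh7 may be confused where the genes overlap.

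The libraries were of similar depth, from 49027885 to 72584877 estimated counts. Acta2 ran from 548 to 6417 FPKM and the summed level of 11 smooth muscle markers from 1222 to 10970 FPKM, with SB273005 replicate 2 lowest on both. Levels of several genes part the libraries into the 6 of PBS and SB273005 replicates 1 to 3 and the other 8 (BAPN, Cilengitide and SB273005 replicate 4). This grouping is known from the data and not from the labels. In the 6, Umod of the kidney tubule ran from 7.73 to 11.6 FPKM, and in the 8 from 19.8 to 25.8 FPKM. Kap, a kidney proximal tubule gene, went the other way, at 221 to 319 and 159 to 217 FPKM. H2-Ea, an MHC class II gene, had 0 counts in each of the 6, which allows up to 3 in each, and 83 to 130 in the 8. Myh7 is itself one of the genes that part the libraries. PBS lies wholly in the 6 and BAPN and Cilengitide wholly in the 8, so in these comparisons the set and the treatment cannot be told apart.

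Myh7 lay at 2 separate levels. It was at 4.81, 5.08 and 4.51 FPKM in PBS replicates 1 to 3, and at 0.0329, 0.0820, 0.110 and 0.261 FPKM in BAPN replicates 1 to 4. In BAPN with Cilengitide it was at 0.251, 0.0454 and 0.144 FPKM. In BAPN with SB273005 it was at 5.96, 5.31 and 7.54 FPKM in replicates 1 to 3 and at 0.261 FPKM in replicate 4. All PBS libraries and SB273005 replicates 1 to 3 were thus high and the other 8 low, with no value between 0.261 and 4.51 FPKM. In estimated counts these were 2428 to 3525 in the high libraries and 23 to 136 in the low ones. Reads of Myh6 or Mhrt may be among the low counts, and their part was not tested.

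Myh6 followed Myh7 with a smaller gap. It was at 21.4, 26.0 and 23.5 FPKM in PBS, and at 0.736, 1.99, 2.22 and 4.34 FPKM in BAPN. It was at 10.6, 1.37 and 4.88 FPKM in Cilengitide, and at 32.2, 24.2, 47.1 and 7.41 FPKM in SB273005. The same 6 libraries were the highest, at 21.4 FPKM or more, and the highest of the other 8 was Cilengitide replicate 1.

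**Figure D1:**
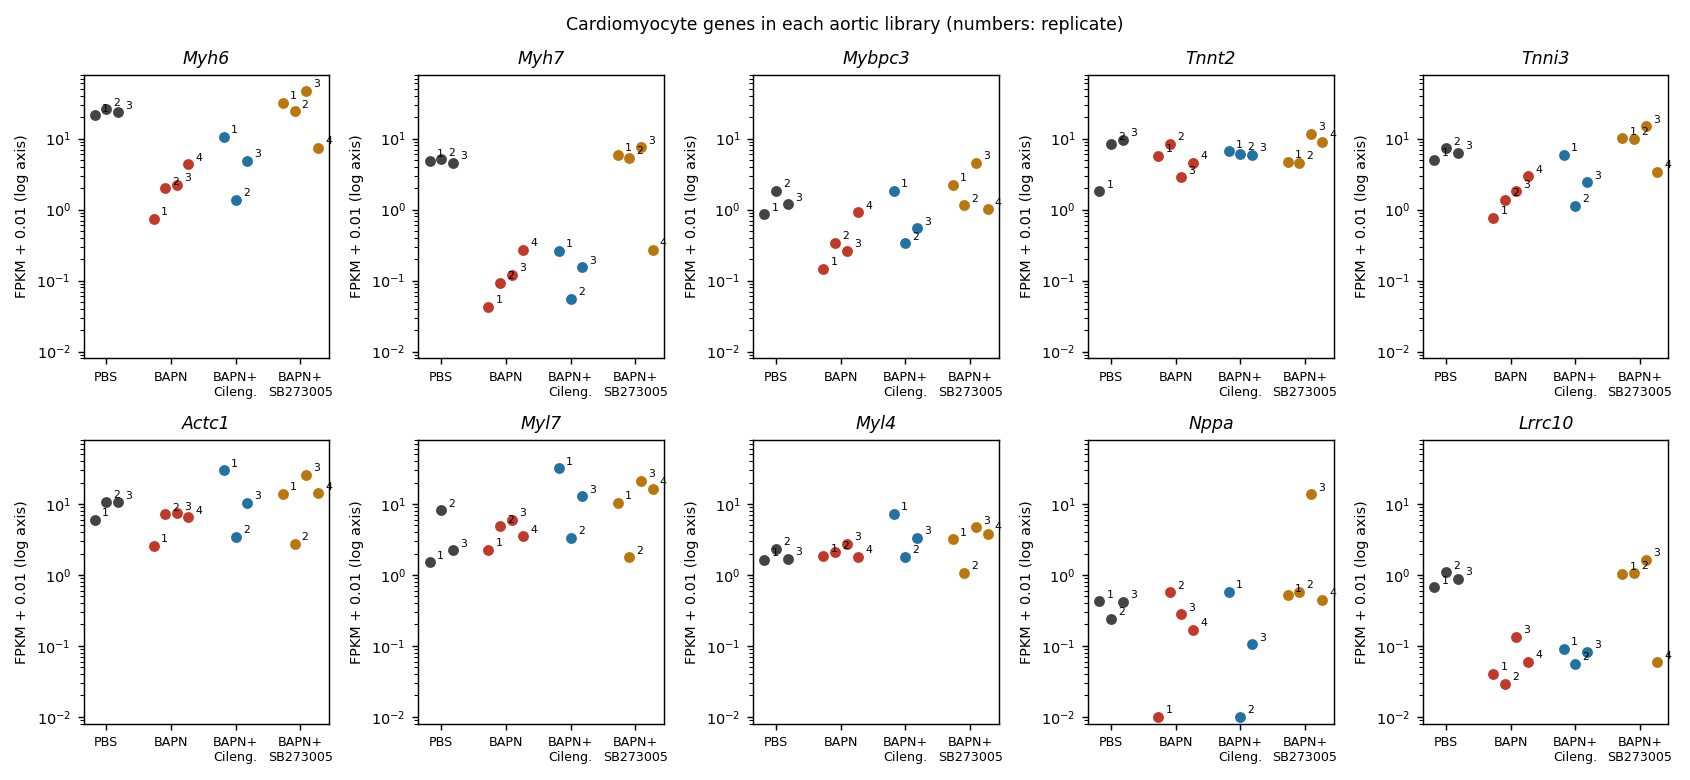
FPKM (plus 0.01, log axis) of each of the 10 genes in every library, by group, with the replicate number beside each point and without group means. Myh7 and Lrrc10 sit at a second, low level in BAPN, Cilengitide and SB273005 replicate 4, Myh6 shows a smaller gap, and Tnnt2, Actc1, Myl7 and Myl4 show none.

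Lrrc10, a leucine-rich repeat protein found in heart muscle cells, had the same split. It was at 0.656, 1.08 and 0.862 FPKM in PBS, at 0.0305, 0.0193, 0.124 and 0.0496 FPKM in BAPN, and at 0.0804, 0.0455 and 0.0722 FPKM in Cilengitide. In SB273005 it was at 1.03, 1.05 and 1.61 FPKM in replicates 1 to 3 and at 0.0483 FPKM in replicate 4. The low values rest on 3 to 12 counts per library, so their order carries little information.

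Tnni3 and Mybpc3 took a middle course. Tnni3, the cardiac inhibitory troponin subunit, was at 4.995, 7.29 and 6.30 FPKM in PBS, at 0.750, 1.35, 1.80 and 2.93 in BAPN, at 5.92, 1.13 and 2.40 in Cilengitide and at 10.1, 9.90, 14.9 and 3.43 in SB273005. PBS and BAPN did not overlap, but Cilengitide replicate 1 lay inside the PBS range. Mybpc3, the cardiac myosin-binding protein C, was at 0.850, 1.83 and 1.18 FPKM in PBS, at 0.136, 0.330, 0.251 and 0.907 in BAPN, at 1.82, 0.326 and 0.534 in Cilengitide and at 2.24, 1.15, 4.51 and 0.993 in SB273005. Its PBS and BAPN ranges overlapped.

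Myl7, Myl4 and Actc1 varied between libraries in another pattern. Myl7 was at 1.498, 8.09 and 2.198 FPKM in PBS, at 2.26, 4.84, 5.98 and 3.48 in BAPN, at 31.7, 3.34 and 12.8 in Cilengitide and at 10.4, 1.75, 21.4 and 16.5 in SB273005. Its 5 highest libraries were Cilengitide replicates 1 and 3 and SB273005 replicates 1, 3 and 4, which come from both sides of the Myh7 split. Actc1, cardiac α-actin, was at 5.93, 10.7 and 10.6 FPKM in PBS, at 2.55, 7.15, 7.40 and 6.44 in BAPN, at 29.8, 3.40 and 10.3 in Cilengitide and at 14, 2.75, 25.9 and 14.1 in SB273005. Myl4 ran from 1.06 FPKM in SB273005 replicate 2 to 7.25 FPKM in Cilengitide replicate 1. Myl7 thus spanned 14.3-fold over the 6 libraries in which Myh7 spanned 1.67-fold.

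Tnnt2, the cardiac subunit of troponin that binds tropomyosin, showed no step between groups. It was at 1.79, 8.50 and 9.63 FPKM in PBS, at 5.66, 8.41, 2.82 and 4.51 in BAPN, at 6.58, 6.14 and 5.88 in Cilengitide and at 4.66, 4.59, 11.7 and 9.03 in SB273005, so PBS alone held nearly the whole range. Nppa was near the limit of detection in 13 libraries, from 0 to 0.573 FPKM, and at 13.6 FPKM in SB273005 replicate 3. It had 640 counts there and at most 36 in any other library, and 0 counts in BAPN replicate 1 and Cilengitide replicate 2.

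Levels of different genes can be compared only per length, and the deposited gene FPKM uses an overall gene length that exceeds that of the coding transcript for some members (7755 against 1172 bases for Tnnt2). On the sum of transcript FPKM, the median over the 14 libraries was 41.8 for Tnnt2, 11.7 for Myh6, 10.2 for Myl4 and for Tnni3, 9.72 for Actc1, 5.41 for Myl7, 0.950 for Mybpc3, 0.786 for Myh7, 0.409 for Nppa and 0.102 for Lrrc10. The neighbours from Myh6 to Myl7 in this order had ranges that overlapped widely.

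In BAPN against PBS, 1 of the 9 tested members passed the threshold of an adjusted p of 0.05, beside 0.233% of all 13294 genes tested, and it was lower. Nppa was not tested, since it reached 1 FPKM in 1 library and the filter asked for 3; Myh7 and Lrrc10 passed the filter only through PBS and SB273005 libraries. Myh7 fell from 4.80 ± 0.286 FPKM (SD, n = 3) to 0.121 ± 0.0981 (n = 4). The fitted log2 difference was −5.31 with an SE of 0.91, or 39.8-fold on the fitted scale (adjusted p = 0.04 by edgeR's quasi-likelihood test with Benjamini-Hochberg adjustment). In a bulk sample, fewer heart muscle cells and less RNA per cell cannot be told apart. Myh6 was at 23.6 ± 2.33 and 2.32 ± 1.49 FPKM, with a log2 difference of −3.35 ± 0.70, and Lrrc10 was at −3.84 ± 0.81 (edgeR adjusted p = 0.0537 for both). Tnni3 was at −1.85 ± 0.56 (edgeR adjusted p = 0.168). The groups did not overlap for these 4 genes of 9, against 14.6% of all genes tested. The median log2 difference was −1.69 over the 9 members and 0.00 over all genes. DESeq2 called 4 members, these same genes, beside 3.63% of all genes. The Myh7 call passed under 9 of 24 alternatives, with adjusted p from 2.37e-06 (DESeq2) to 0.166, and was lost when any 1 PBS, BAPN or Cilengitide library was left out (adjusted p from 0.054 to 0.144) or SB273005 replicate 3 was (0.0528). Without SB273005 replicate 2, the library low in smooth muscle genes, and likewise without SB273005 replicate 4, edgeR called 3 members (Myh6, Myh7 and Lrrc10). In these fits 186 and 86 of all 13294 genes passed.

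In BAPN with Cilengitide against PBS, 2 of 9 members passed, both lower, beside 5.58% of all genes. Both, Myh7 and Lrrc10, had entered the test only through PBS and SB273005 libraries, so their count is no separate support for a fall. Myh7 fell to 0.147 ± 0.103 FPKM (SD, n = 3), a log2 difference of −4.98 ± 1.01 (edgeR adjusted p = 0.0164), and Lrrc10 fell from 0.867 ± 0.214 to 0.0660 ± 0.0182 FPKM, a difference of −3.57 ± 0.89 (edgeR adjusted p = 0.0369). Myh6 was at −2.05 ± 0.74 (edgeR adjusted p = 0.132). These 3 genes did not overlap between the groups, against 31.9% of all genes, so a share of 3 in 9 is near the background. Myl7 and Myl4 pointed up, at 2.00 ± 0.90 and 1.15 ± 0.49 (edgeR adjusted p = 0.233 and 0.21), and the members' median was −0.51 against −0.02 over all genes. No member was called without PBS replicate 2, without Cilengitide replicate 1 or without Cilengitide replicate 2, and Myh7 alone was called without PBS replicate 1, PBS replicate 3 or Cilengitide replicate 3. The Lrrc10 call passed under 12 of 23 alternatives and was also lost with no filter on low values (edgeR adjusted p = 0.0738) and with limma on all 3 scales tried (adjusted p from 0.081 to 0.0863).

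In BAPN with SB273005 against PBS no member passed, beside 13.2% of all genes, and none had an unadjusted p under 0.05 (29.1% of all genes) or was called by DESeq2 (19.7%). None of the 9 was without overlap, against 23.2% of all genes. Untested Nppa was above PBS in all 4 SB273005 libraries, though by little in 3 of them. The difference for Myh7 was 0.04 ± 0.79 with a 95% interval from −1.66 to 1.73, which does not show the groups to be alike. Without SB273005 replicate 4, where all libraries compared belong to the 6, Myh7 was at 0.43 ± 0.54, Myh6 at 0.58 ± 0.63, Lrrc10 at 0.54 ± 0.43 and Tnni3 at 0.95 ± 0.53 (edgeR adjusted p from 0.249 to 0.628). All 9 members pointed up, with a median of 0.67 against 0.02 over all genes.

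**Figure D2:**
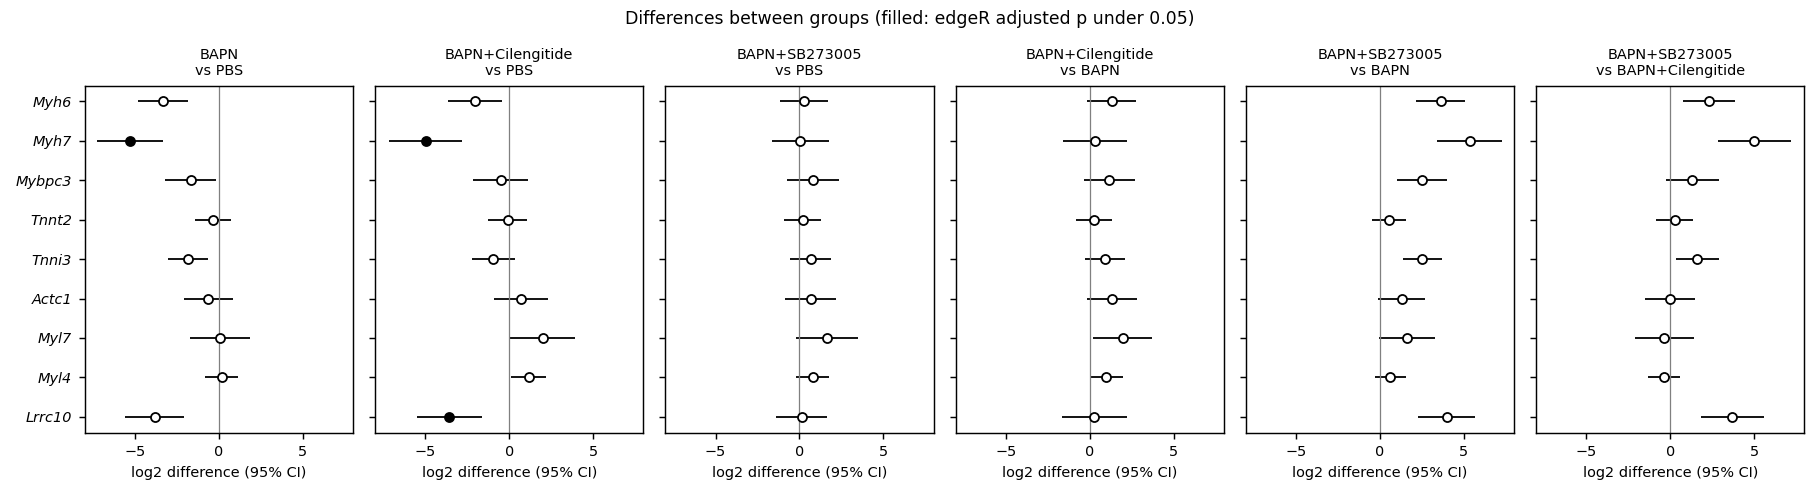
Log2 differences of the 9 tested members (points) with approximate 95% intervals (bars) in the 6 comparisons, filled where the edgeR adjusted p is under 0.05. The 3 filled points are Myh7 in both the BAPN and the Cilengitide comparison with PBS and Lrrc10 in the latter.

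The inhibitors were also set against BAPN alone, with the same 4 BAPN libraries in both comparisons. In Cilengitide against BAPN no member passed, beside 0.0% of all genes. Unadjusted, Myl7 and Myl4 were under 0.05, beside 6.07% of all genes, and DESeq2 called none, beside 0.159%. All groups overlapped, against 10.5% of all genes that did not. All libraries here belong to the 8, and Myh7 was low in each of them, with a difference of 0.33 ± 0.88 and a 95% interval from −1.58 to 2.24. Myh6 was at 1.30 ± 0.67 and Myl7 at 1.96 ± 0.82 (edgeR adjusted p = 0.795 for both).

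In SB273005 against BAPN no member passed edgeR's threshold, beside 0.0301% of all genes, although 5 had an unadjusted p under 0.05, beside 16.1% of all genes, and DESeq2 called 5, beside 2.98%. Myh7 and Lrrc10, both among these 5, had entered the test only through PBS and SB273005 libraries. Their calls are therefore no separate support for a rise. Myh7 was at 5.35 ± 0.90 (edgeR adjusted p = 0.0516), Lrrc10 at 3.99 ± 0.79 (0.0949), Myh6 at 3.62 ± 0.68 (0.085), Tnni3 at 2.52 ± 0.54 (0.112) and Mybpc3 at 2.49 ± 0.69 (0.161). Myh6, Myh7, Tnni3 and Mybpc3 did not overlap between the groups, against 7.87% of all genes; for Myh7 the gap was between 0.2605 FPKM in BAPN replicate 4 and 0.2612 FPKM in SB273005 replicate 4. Without SB273005 replicate 4, the SB273005 library low in Myh7, edgeR called 4 members, beside 79 of all 13294 genes. Myh7 was then at 5.75 ± 0.60 (edgeR adjusted p = 0.00105) and Lrrc10 at 4.38 ± 0.47 (edgeR adjusted p = 0.00121). That comparison lies wholly across the library sets, so set and treatment cannot be told apart. The other 4 tested members, Actc1, Myl7, Myl4 and Tnnt2, were at 0.53 to 1.61 (edgeR adjusted p of 0.323 or more).

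Between the inhibitors, no member passed, beside 0.0% of all genes, while 4 had an unadjusted p under 0.05, beside 9.21% of all genes, and DESeq2 called 2 (Myh7 and Lrrc10), beside 0.295%. Both had entered the test only through PBS and SB273005 libraries, so these calls are no separate support for a difference. Myh7 was 5.02 ± 1.00 log2 units higher with SB273005 (edgeR adjusted p = 0.5), and it was the 1 member without overlap, against 6.53% of all genes. Without SB273005 replicate 4, Myh7 was at 5.42 ± 0.66 and Lrrc10 at 4.10 ± 0.52 (edgeR adjusted p = 0.00423 and 0.00507). In that fit 15 of all 13294 genes passed. These fits did not pair libraries by replicate number. With the replicate number as a block, Myh7 was at 5.06 ± 1.12 and Lrrc10 at 3.86 ± 0.73 (edgeR adjusted p = 0.395 and 0.326). Myl7, Myl4 and Actc1 were at −0.35 ± 0.81, −0.37 ± 0.45 and −0.03 ± 0.69, with 95% intervals that reach from −2.09 to 1.45. Cilengitide, a cyclic peptide, and SB273005, a small molecule that is not a peptide, were given at doses that the labels do not state, so this is not a comparison at matched doses.

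Myh7 relative to Myh6 was compared within each library, since both are read from 1 pool of RNA. The FPKM ratio of Myh7 to Myh6 was 0.226, 0.195 and 0.192 in PBS, 0.0447, 0.0412, 0.0493 and 0.0601 in BAPN and 0.0237, 0.0331 and 0.0295 in Cilengitide. In SB273005 it was 0.185, 0.220 and 0.160 in replicates 1 to 3 and 0.0352 in replicate 4. The 6 and the 8 libraries did not overlap, and the order within the 8 put every Cilengitide library below every BAPN library. That order rests on the low Myh7 counts, in which the part of Myh6 reads was not tested. On the log2 scale (pseudocount 0.01) the ratio was −2.29 ± 0.13 (SD, n = 3) in PBS, −4.20 ± 0.19 (n = 4) in BAPN, −4.99 ± 0.35 (n = 3) in Cilengitide and −3.01 ± 1.19 (n = 4) in SB273005. It was 3.74-fold lower in BAPN than in PBS (exact two-sided permutation test, p = 0.0571, adjusted over 6 comparisons p = 0.171) and 1.73-fold lower in Cilengitide than in BAPN (exact permutation p = 0.0571, adjusted p = 0.171). It was 6.49-fold lower in Cilengitide than in PBS (exact permutation p = 0.1, adjusted p = 0.171). Each of these 3 p-values is the smallest that its group sizes allow. The exact permutation p was 0.229 for SB273005 against PBS, 0.143 against BAPN and 0.114 against Cilengitide. The smallest permutation p that these group sizes allow is 0.0286 to 0.1, so none of the 6 could pass after adjustment, and none did.

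Myh6 relative to Myl7 also differed between the library sets. The FPKM ratio was 14.3, 3.22 and 10.7 in PBS and 3.09, 13.8 and 2.203 in SB273005 replicates 1 to 3. It was 0.326, 0.411, 0.372 and 1.25 in BAPN, 0.334, 0.412 and 0.382 in Cilengitide and 0.450 in SB273005 replicate 4. In 7 of the 8 low libraries it thus stayed within 0.326 to 0.450 while Myl7 itself ran from 2.26 to 31.7 FPKM, and BAPN replicate 4 was the exception. By contrast, the ratio of Actc1 to Myl7 overlapped between the sets, at 1.21 to 4.80 and 0.804 to 1.85. On the sum of transcript FPKM, Myh6 and Myh7 together made up 25.7% to 52.0% of the 10 genes in the 6 libraries and 1.64% to 10.5% in the 8.

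**Figure D3:**
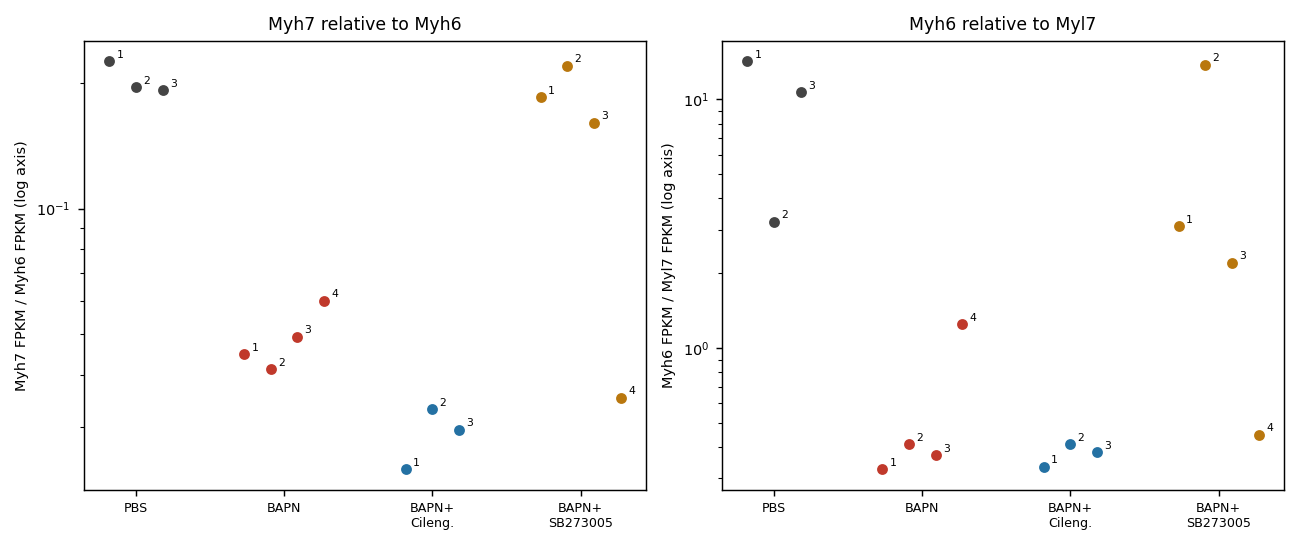
FPKM ratio of Myh7 to Myh6 (left) and of Myh6 to Myl7 (right) in every library, on log axes, with replicate numbers. Ratios of Myh7 to Myh6 lie between 0.160 and 0.226 in PBS and SB273005 replicates 1 to 3 and between 0.0237 and 0.0601 elsewhere; ratios of Myh6 to Myl7 are 2.203 or more in the same 6 libraries.

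The genes most like each heavy chain were ranked over the 14 libraries by the root mean square difference of centred log2(FPKM + 0.1) values, as a description. Myh6 was closest to Tnni3 (0.658), then to Tnnc1 (0.691), the troponin C of heart and slow muscle, and to Mybpc3 (0.892), then Slc22a7 (1.19), Ndufs6b (1.21) and Gng5-ps (1.26), against a median of 1.84 over all genes tested. Myh7 was closest to Lrrc10 (1.07), then to Ndufs6b (1.57), Myh6 (1.72), Igkv6-23 (1.74), Tnni3 (1.98) and Tnnc1 (2.00), against a median of 2.69. Of all pairs of members Mybpc3 and Tnni3 were closest, at 0.404. Tnnc1 was at 5.29 to 12.0 FPKM in the 6 and 0.622 to 4.95 FPKM in the 8, without overlap but with a narrow gap. The lowest of the 6 was 1.07-fold the highest of the 8, against 2.02-fold for Myh6. As Tnnc1 was picked for its likeness to Myh6 in these libraries, its pattern is no separate support.

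No tested neighbour of the heavy chain genes passed the threshold in BAPN against PBS. The deposited table lists 15 other genes within 60 kb, of which 6 were tested (Bcl2l2, Gm20521, Pabpn1, Slc22a17, Efs and Ngdn). Their log2 differences between BAPN and PBS ran from −0.30 to 1.93, the highest from Gm20521, which had 877 counts in all, and the smallest edgeR adjusted p was 0.402 (Ngdn).

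Other genes that heart muscle uses were taken from 7 lists, and the cells they were read from here were not tested. None of the 15 tested sarcomere and Z-disc genes (of 20 listed), 9 of 10 calcium-handling genes, 7 of 13 transcription regulators, 5 of 7 natriuretic peptide and stress genes, 11 of 11 genes of striated muscle metabolism, 3 of 6 atrial markers and 2 of 4 ventricular markers passed in BAPN against PBS, where Tnnc1 was at −2.58 ± 0.53 (edgeR adjusted p = 0.0537). In Cilengitide against PBS, Actn2, the α-actinin of the Z-disc, fell by 1.77 ± 0.45 and Ankrd1, a stretch-responsive titin-binding protein, rose by 2.62 ± 0.64 (edgeR adjusted p = 0.0399 and 0.0329). In SB273005 against PBS, Ankrd1 rose by 2.02 ± 0.60, the natriuretic peptide clearance receptor Npr3 by 1.25 ± 0.28 and the potassium channel Kcna5 by 1.77 ± 0.35, and Tcap, the titin cap, fell by 1.66 ± 0.32 (edgeR adjusted p = 0.0433, 0.0144, 0.00851 and 0.00814). No other gene of these 7 lists passed in any comparison. Of the 48 distinct genes tested, 4.17% thus passed in Cilengitide against PBS and 8.33% in SB273005 against PBS, beside 5.58% and 13.2% of all genes. The median of the sarcomere list was −0.66 in BAPN, −0.55 in Cilengitide and −0.61 in SB273005, each against PBS. Tcap ran from 49.5 to 271 FPKM, while Ttn ran from 0.0297 to 1.83 FPKM. The calcium-handling sum was lowest in SB273005 replicate 2 (65.1 FPKM), the library lowest in smooth muscle markers. The metabolism sum was highest in PBS replicate 2 (970 FPKM), the library highest in fast and developmental skeletal muscle markers.

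The summed level of the 6 atrial markers outside the members was 0.844 to 1.81 FPKM in PBS, 1.35 to 2.24 in BAPN, 1.58 to 8.76 in Cilengitide and 2.84 to 9.36 in SB273005. Sln, sarcolipin, was highest in Cilengitide replicate 1 at 4.68 FPKM and in SB273005 replicate 3 at 2.86 FPKM, and Mybphl was highest in the same libraries at 2.22 and 1.89 FPKM. Bmp10, a ligand of the right atrium, had 0 counts in 13 libraries and 4 in Cilengitide replicate 2. Of the other atrial markers, Kcna5 ran from 0.616 FPKM in PBS to 4.25 FPKM in SB273005, and Kcnj3 and Kcnj5 reached at most 0.2205 and 0.2374 FPKM. The 4 ventricular markers summed to 0.285 to 5.40 FPKM over the libraries. Myl2 ran from 0.0624 to 3.60 FPKM and Myl3 from 0 to 3.175 FPKM, while Nppb had at most 8 counts and Irx4 at most 6 in any library. The part of atrial tissue in these results was not tested.

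Skeletal muscle genes did not follow Myh7. The summed level of 22 fast and developmental skeletal muscle markers was 105, 3167 and 93.3 FPKM in PBS, 240 to 2058 in BAPN (2058 in replicate 3), 267 to 612 in Cilengitide and 86.1 to 432 in SB273005. PBS replicate 2 was thus far above the other PBS libraries in these genes, while its Myh7 level of 5.08 FPKM was close to theirs. The 3 slow muscle markers summed to 0.594 to 3.12 FPKM, with Tnnt1 at 0.5475 to 2.26, Tnni1 at 0 to 0.473 and Myh7b at 0 to 0.390 FPKM. Without PBS replicate 2 and BAPN replicate 3, a pair chosen after seeing the data, Myh7 was at −5.21 ± 1.15 in BAPN against PBS, about as large as with all libraries, but no longer passed (edgeR adjusted p = 0.166). Of the 4 kidney and MHC class II genes, Umod and Slc12a1 passed as higher in both BAPN and Cilengitide against PBS, by 1.43 ± 0.25 and 1.01 ± 0.18 in BAPN (edgeR adjusted p = 0.0431 for both), and their part in the Myh7 result was not tested.

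**Figure D4:**
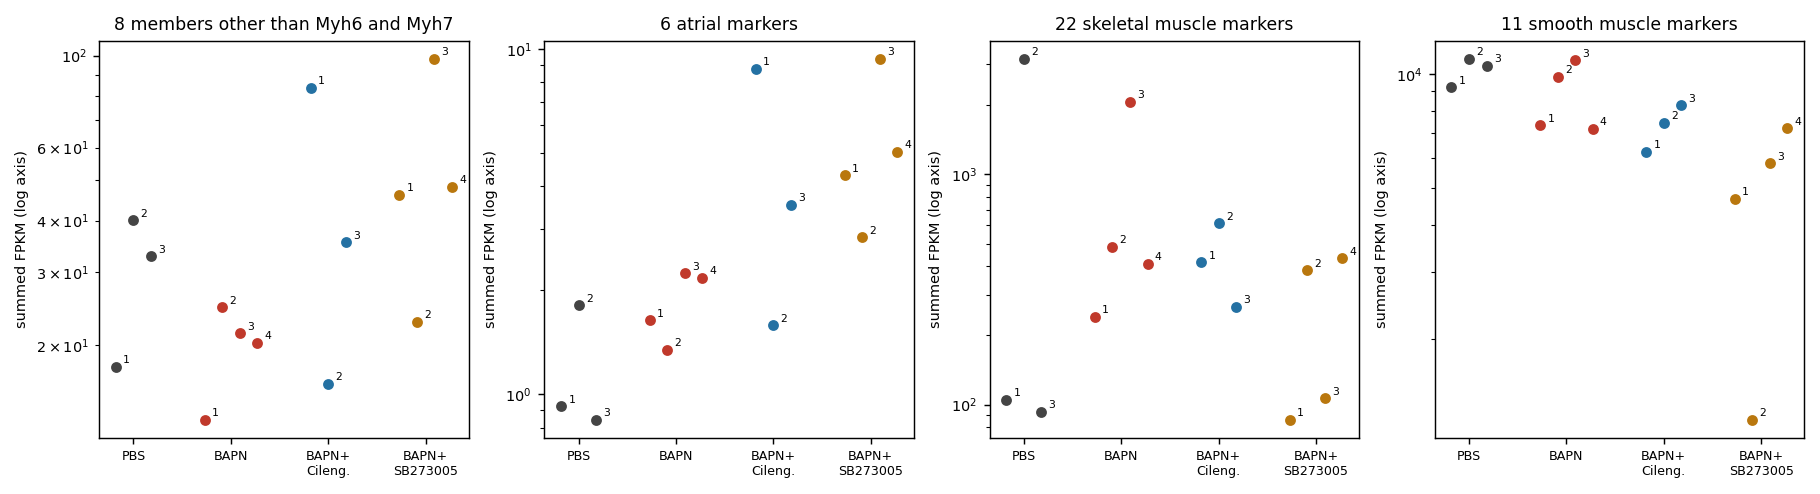
Summed FPKM (log axes) in every library of the 8 members other than Myh6 and Myh7, of 6 atrial markers, 22 skeletal muscle markers and 11 smooth muscle markers, with replicate numbers. Cilengitide replicate 1 and SB273005 replicate 3 are highest in the first 2 panels, PBS replicate 2 and BAPN replicate 3 in the third, and SB273005 replicate 2 is lowest in the fourth at 1222 FPKM.

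Myh6 and Myh7 are close paralogs, so their reads can be confused. Their coding sequences (GENCODE vM21) are 91.5% identical, and 22.6% of the 50-base stretches of each main coding transcript occur in the other. No other member shared a 50-base stretch with another gene. Actc1 is 82.6% identical to Acta2, the most abundant actin of the aorta, in coding sequence and 86.3% to Acta1 of skeletal muscle. Estimated counts of Myh7 were 20.6% to 28.9% of those of Myh6 in the 6 libraries and 3.05% to 7.81% in the 8. Transcripts of Myh7 were divided unevenly: one coding transcript (ENSMUST00000102803) was listed at 0 in 7 libraries and the other (ENSMUST00000168485) at 0 in 3, and a retained-intron transcript of 595 bases (ENSMUST00000227401) had the highest FPKM in 7. Tnnt2 was led by ENSMUST00000178204 in 8 libraries and by ENSMUST00000112085 in 6. These swaps occurred between replicates of 1 group, so transcripts were not compared between groups.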

How the data were processed

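RNA of ascending aortic tissue was sequenced in 14 libraries (3 PBS, 4 BAPN, 3 BAPN+Cilengitide, 4 BAPN+SB273005), grouped by the treatment label. Per the submitters' processing notes, the tools were HISAT2 2.2.1 and StringTie 2.1.6 and the build was mm10. Neither annotation release nor strandedness is given in the sources used here. The authors deposited FPKM and estimated counts (whole numbers) for each gene and transcript. An estimated count is derived from coverage and not from reads assigned whole, so models of counting error are approximate, and the count of 3 that a listed 0 allows covers counting error only.

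The members, gene lists (17 lists, 132 genes) and tests were chosen with earlier results of these data known. Genes that reached 1 FPKM in 3 libraries or more (13294, with at least 98.84% of each library's counts) were tested on the estimated counts with edgeR 4.0.16 (R 4.3.3; TMM, quasi-likelihood, 1 fit of all libraries, Benjamini-Hochberg adjustment over all genes tested, threshold 0.05). SE were worked back from the F statistic, and 95% intervals are approximate. Ratios of Myh7 to Myh6 (FPKM + 0.01, log2) were compared with exact two-sided permutation tests (SciPy 1.17.1). The code was tested on simulated data.

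Named genes were the 10 members, the 6 tested genes most like Myh6 and the 6 most like Myh7, genes within 60 kb of these, list genes past the threshold (up to 4 per list and comparison) with each list's defining genes, and Umod and H2-Ea. Kap, Slc12a1, Tnni1, Sln, Mybphl and the level of Tnnc1 per library were singled out after their values were seen. Alternatives were other filters, size factors, limma 3.58.1 on log2(FPKM + 1), log2(FPKM + 0.1) or log2(TPM + 1), DESeq2 1.42.0, 2-group fits, a replicate block and leaving out each library. All 18 pairs of replicates differed beyond sampling noise (chi-square of at least 41.5 per degree of freedom), so each library counted as 1 sample. Deviations of same-numbered libraries correlated above 0.1 in every pair in SB273005 against Cilengitide alone (0.154 to 0.302). The main fit left the libraries of that comparison unpaired, and the fit with the replicate block is given beside it.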

Additional observations from a re-analysis of the deposited data

Results flagged for a closer look

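Groups of 4 libraries were searched for a single library far from the rest, in 22 combinations of gene or ratio and group, and chance alone flags about 1 in 20. One stood out. Nppa, the atrial natriuretic peptide gene, was at 13.63 FPKM in BAPN+SB273005 replicate 3 while replicates 1, 2 and 4 ran from 0.437 to 0.573 FPKM, so the gap made up 0.99 of the whole range. That library was also the highest of the 14 for Myh6, Myh7, Tnni3, Mybpc3, Tnnt2 and Lrrc10, but not for Myl7, Myl4 or Actc1. Its summed atrial markers were the highest at 9.36 FPKM. That sum includes Kcna5, which was at 1.42 to 4.25 FPKM in SB273005 and 0.616 to 0.904 FPKM in PBS. Sln and Mybphl were higher in Cilengitide replicate 1 (4.68 and 2.22 FPKM), where Nppa was at 0.563 FPKM. The part of atrial tissue in the Nppa value was not tested. Fitted without the filter on low values, Nppa was 3.38 ± 1.49 log2 units higher with SB273005 than in PBS (edgeR quasi-likelihood adjusted p = 0.272).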

How the results depend on the processing

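Over all results and alternatives, 1177 values kept their direction and side of the threshold, 25 gained and 30 lost significance, and 46 changed sign, none of which passed. Alternatives moved the counts of members called; the cause was not tested. In BAPN vs PBS edgeR called 1 member, and the count was 0 with no filter, 2 with a filter at 5 FPKM, 0 with limma on log2(FPKM + 1), 2 on log2(FPKM + 0.1), 3 with the compared groups alone, 0 with the replicate block, 0 without PBS replicate 2 and BAPN replicate 3 together (chosen after seeing the data), 4 with DESeq2, and 0 to 3 with 1 library left out. In BAPN+Cilengitide vs PBS (2) it was 1 with no filter, with the stricter filter and with limma on log2(FPKM + 1), log2(FPKM + 0.1) or log2(TPM + 1), 0 without that pair of libraries, and 0 to 2 with 1 library left out. In BAPN+SB273005 vs BAPN (0) it was 1 with the stricter filter, 5 with DESeq2 and 0 to 4 with 1 library left out. In BAPN+SB273005 vs BAPN+Cilengitide (0) it was 2 with DESeq2 and 0 to 2 with 1 library left out, and 0 with the replicate block. The replicate block, where the numbers share only a name, changed no other count of members. The ratio of Myh7 to Myh6 kept its direction and passed under no alternative. Its permutation test, adjusted over 6 comparisons, could not pass at these group sizes. Its paired test over shared replicate numbers had too few pairs to pass. Genes called over all settings ranged from 0 to 480 in BAPN vs PBS and from 96 to 1465 in BAPN+Cilengitide vs PBS. They ranged from 0 to 395 in BAPN+SB273005 vs BAPN and from 0 to 39 in BAPN+SB273005 vs BAPN+Cilengitide.

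Differences that changed sign are log2 values. With 1 library left out, Tnnt2 ran from −0.79 to 0.012 in BAPN vs PBS, −0.54 to 0.27 in BAPN+Cilengitide vs PBS, −0.27 to 0.54 in BAPN+SB273005 vs PBS and −0.0064 to 0.45 between the inhibitors. Myl7 ran from −0.35 to 1.19 in BAPN vs PBS and −0.83 to 0.62 between the inhibitors, and Myl4 from −0.0017 to 0.39 and −0.74 to 0.30. Actc1 ran from −0.38 to 1.16 in BAPN+Cilengitide vs PBS and −0.50 to 1.04 between the inhibitors. In BAPN+SB273005 vs PBS, Myh6 ran from −0.090 to 0.58, Myh7 from −0.25 to 0.43 and Lrrc10 from −0.23 to 0.54, and Myh7 ran from −0.28 to 1.00 in BAPN+Cilengitide vs BAPN. With limma on log2(FPKM + 1), log2(FPKM + 0.1) and log2(TPM + 1), BAPN+SB273005 vs PBS gave −0.026, −0.042 and −0.077 for Myh6, −0.31, −0.67 and −0.56 for Myh7 and −0.017, −0.33 and −0.17 for Lrrc10, and BAPN+Cilengitide vs PBS gave 0.13, 0.22 and 0.38 for Tnnt2. Between the inhibitors, limma gave −0.074 for Tnnt2 on log2(TPM + 1), and 0.094 and 0.10 for Actc1 on the FPKM scales. With the replicate block, Myl7 was −0.12 in BAPN vs PBS, Tnnt2 0.10 in BAPN+Cilengitide vs PBS and Lrrc10 −0.14 in BAPN+Cilengitide vs BAPN. Myh7 was −0.027 in BAPN+SB273005 vs PBS with no filter. Without PBS replicate 2 and BAPN replicate 3 together, Tnnt2 was 0.11 in BAPN vs PBS and 0.16 in BAPN+Cilengitide vs PBS. Low counts limit Lrrc10 (3 to 12 in the low libraries) and Nppa most.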
